A study of Mus musculus with 16 samples.

Results

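DNase hypersensitive sites (DHS) are stretches of open chromatin in which DNase I cuts DNA readily, and the strong DHS found in the liver of only 1 combination of sex and strain are described here. Liver nuclei of 8-week-old mice, males and females of C57BL/6J (B6) and of CAST/EiJ (here CAST), were digested with 32 units of DNase I. The 16 libraries, 4 for each sex and strain, were pooled by the authors into 4 DHS lists, 1 each for male B6, female B6, male CAST and female CAST. The labels give no treatment or transgene for any of the 4 groups, and the study compared them to find regulatory elements whose sex bias differs between the strains. The mouse reference genome was built from B6, and CAST is an inbred strain of a different mouse subspecies. Joining the peaks of the 4 lists on chromosomes 1 to 19 wherever they shared 1 bp or more gave 50655 regions. A region was a member when it held a peak of exactly 1 list and its highest fold enrichment, the ratio of the summit read pileup to the local background, was at or above the median of that list. This left 968 members, of which 551 were from male CAST, 401 from male B6, 13 from female B6 and 3 from female CAST. The rule thus selected members on measured fold enrichment and on the absence of a peak in the other lists, so neither is a finding here.

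Most promoters of liver genes are open in both sexes and in many strains, whereas distal enhancers are the elements that vary most between individuals, cell types and hormonal states. Pulses of growth hormone from the male pituitary, against a more continuous release in females, drive the sex bias of liver genes through the kinase JAK2 and the transcription factor STAT5, which enters the nucleus after each pulse. Liver enhancers are also bound by C/EBP, FOXA, HNF1 and HNF4A factors, while CTCF marks boundaries and loops of the chromosomes and is bound at much the same places in most tissues.

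The sequences that the results turn on are given first, as 300 bases of the mm9 reference around the summit, in the plus strand orientation, with capitals for any of the 10 motifs searched. They are B6 reference letters, and the CAST alleles were not read. The first window is the male B6 member closest to Srd5a2, one of the 10 highest of that list. Srd5a2 encodes the steroid reductase that makes dihydrotestosterone from testosterone.
Srd5a2, male B6, chr17:74406900-74407199: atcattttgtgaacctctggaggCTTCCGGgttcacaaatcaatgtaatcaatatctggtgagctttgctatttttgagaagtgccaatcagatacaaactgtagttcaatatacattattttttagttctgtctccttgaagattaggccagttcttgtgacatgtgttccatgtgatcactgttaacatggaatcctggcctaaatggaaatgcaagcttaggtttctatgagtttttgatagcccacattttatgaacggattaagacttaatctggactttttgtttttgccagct
It lay between genes, 9359 bp from the nearest transcription start site (TSS), and held the ETS letters once.

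The next windows are 3 of the 14 male CAST windows that held the STAT5 letters TTCNNNGAA at least 2 times, taken from those of high fold enrichment. They are shown because these letters were more frequent in male CAST than in male B6 members, as given below.
Gm13211, male CAST, chr2:8045850-8046149: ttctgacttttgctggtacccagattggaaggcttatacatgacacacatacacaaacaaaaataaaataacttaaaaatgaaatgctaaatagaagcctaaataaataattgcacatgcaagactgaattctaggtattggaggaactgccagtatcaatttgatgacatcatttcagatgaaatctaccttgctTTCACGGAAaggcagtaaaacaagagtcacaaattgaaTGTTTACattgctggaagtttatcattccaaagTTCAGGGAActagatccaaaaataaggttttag
Cbr4, male CAST, chr8:63915531-63915830: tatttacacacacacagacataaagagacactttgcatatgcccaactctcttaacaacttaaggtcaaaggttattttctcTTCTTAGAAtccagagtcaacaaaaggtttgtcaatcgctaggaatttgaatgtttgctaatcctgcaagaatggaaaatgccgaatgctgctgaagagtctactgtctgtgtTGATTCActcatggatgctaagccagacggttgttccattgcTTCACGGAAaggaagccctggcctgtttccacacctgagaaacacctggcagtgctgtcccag
Pcgf5, male CAST, chr19:36397752-36398051: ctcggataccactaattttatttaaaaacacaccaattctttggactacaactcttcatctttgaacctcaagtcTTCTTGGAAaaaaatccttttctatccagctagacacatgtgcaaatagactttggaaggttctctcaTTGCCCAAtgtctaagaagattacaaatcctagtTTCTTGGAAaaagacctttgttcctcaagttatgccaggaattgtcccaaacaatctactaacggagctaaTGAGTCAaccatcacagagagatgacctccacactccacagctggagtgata
Their fold enrichments were 6.94, 6.62 and 6.46 in the same order, and the nearest TSS lay 342666, 50569 and 55430 bp away. The Gm13211 window also held the FOXA letters, the Cbr4 window the AP-1 letters and the Pcgf5 window both the C/EBP and the AP-1 letters.

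The last windows are members beside genes of liver metabolism or pheromone carriage, the highest female B6 member, and the second-highest male CAST member, which resembles the mitochondrial chromosome. Cyp4a32 encodes a fatty acid hydroxylase, Mup20 the major urinary protein that male mice excrete as a pheromone, and Cyp2b10 the phenobarbital-inducible cytochrome P450.
Cyp4a32, male B6, chr4:115269655-115269954: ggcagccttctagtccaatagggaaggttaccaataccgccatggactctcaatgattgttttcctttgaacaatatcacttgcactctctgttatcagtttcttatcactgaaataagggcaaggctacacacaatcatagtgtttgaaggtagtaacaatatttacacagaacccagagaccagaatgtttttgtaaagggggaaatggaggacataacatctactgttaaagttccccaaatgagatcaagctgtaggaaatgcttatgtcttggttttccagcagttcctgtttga
Cyp4a32, male CAST, chr4:115274418-115274717: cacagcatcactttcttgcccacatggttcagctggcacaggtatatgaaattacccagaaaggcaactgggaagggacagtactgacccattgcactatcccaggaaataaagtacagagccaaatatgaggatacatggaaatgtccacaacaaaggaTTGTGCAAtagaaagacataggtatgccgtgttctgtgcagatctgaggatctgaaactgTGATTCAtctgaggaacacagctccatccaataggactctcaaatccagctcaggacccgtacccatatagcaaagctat
Mup20, male CAST, chr4:61715752-61716051: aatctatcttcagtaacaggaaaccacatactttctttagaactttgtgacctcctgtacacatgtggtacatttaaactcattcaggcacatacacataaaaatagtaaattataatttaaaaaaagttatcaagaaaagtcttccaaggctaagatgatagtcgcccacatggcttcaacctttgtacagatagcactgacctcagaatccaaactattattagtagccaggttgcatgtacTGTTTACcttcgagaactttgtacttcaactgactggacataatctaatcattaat
Cyp2b10, female CAST, chr7:26730163-26730462: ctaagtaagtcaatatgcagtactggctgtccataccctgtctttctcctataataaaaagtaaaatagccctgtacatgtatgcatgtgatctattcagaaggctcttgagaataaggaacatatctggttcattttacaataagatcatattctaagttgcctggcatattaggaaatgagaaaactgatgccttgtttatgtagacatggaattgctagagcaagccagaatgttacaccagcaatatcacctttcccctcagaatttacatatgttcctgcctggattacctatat
1700055N04Rik, female B6, chr19:3958965-3959264: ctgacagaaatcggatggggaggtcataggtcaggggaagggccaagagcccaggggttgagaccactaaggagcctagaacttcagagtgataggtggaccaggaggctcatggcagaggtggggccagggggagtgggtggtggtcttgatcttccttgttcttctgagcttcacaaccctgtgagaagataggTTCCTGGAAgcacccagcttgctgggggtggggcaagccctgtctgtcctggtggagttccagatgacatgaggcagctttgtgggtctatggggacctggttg
4921511H03Rik, male CAST, chr5:7276801-7277100: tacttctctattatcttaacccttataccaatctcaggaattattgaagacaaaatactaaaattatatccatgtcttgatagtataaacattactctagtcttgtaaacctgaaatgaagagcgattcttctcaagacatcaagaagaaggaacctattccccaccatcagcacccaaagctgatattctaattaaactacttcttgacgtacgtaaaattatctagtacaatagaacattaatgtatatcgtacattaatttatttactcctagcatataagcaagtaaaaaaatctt
The male CAST window at Cyp4a32 held the C/EBP and AP-1 letters once each, the Mup20 window the FOXA letters and the female B6 window the STAT5 letters. The male B6 window at Cyp4a32, the Cyp2b10 window and the mitochondria-like window held none of the 10.

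Strong single-list DHS were found almost entirely in the male lists. They made up 401 of the 7223 regions found in male B6 alone (5.55%) and 551 of the 7776 found in male CAST alone (7.09%), against 13 of 1565 in female B6 (0.831%) and 3 of 1276 in female CAST (0.235%). Over all regions of a list, whether shared or not, the median was reached by 50.4% for male B6 and 50.3% for male CAST, and by 51% for female B6 and 50.9% for female CAST. The rule used this contrast, so nothing is read from the gap. Each group had a single pooled list and no replicates, so the counts carry no replicate error and were not tested. List length moved with sex, with 38107 and 38971 peaks for male B6 and male CAST and 25782 and 24467 for female B6 and female CAST. Its part in the counts was not tested. With every list cut to its 24467 highest peaks by q-value, members numbered 124 and 136 for male B6 and male CAST, against 28 and 23 for female B6 and female CAST. The medians were taken again from the cut lists, and a peak dropped from 1 list could leave a region in another list alone. These counts thus do not isolate list length.

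The list medians of fold enrichment were 3.48 and 3.73 for male B6 and male CAST, and 3.28 and 4.06 for female B6 and female CAST. Members ranged from 3.48 to 11.3 in male B6, with a median of 3.91, and from 3.74 to 16.6 in male CAST, with a median of 4.28. In female B6 they ranged from 3.28 to 5.42 with a median of 3.42, and the female CAST members had 4.14, 4.92 and 5.15. The members lay mostly close above the threshold, and 5 male B6 and 7 male CAST members reached the top decile of their list, while none did in either female list.

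**Figure D1:**
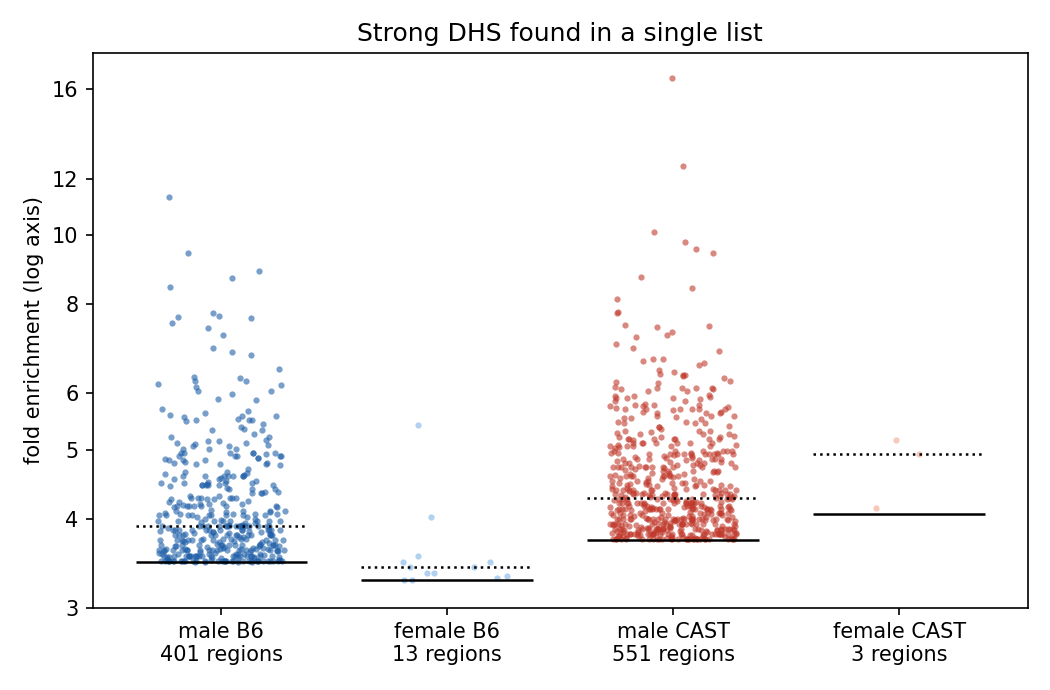
Fold enrichment of each strong single-list DHS (points, log axis) by list, with the list median that served as threshold (solid line) and the median of the members (dotted line). Members of male B6 reach 11.3 and those of male CAST 16.6, and most lie close above the threshold.

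Just inside and just outside the threshold the values were nearly the same in the male lists. In male B6 the 3 lowest members had a fold enrichment of 3.4774, 3.4784 and 3.4788, near 4430402I18Rik, Ccl2 and Etv4, and the 3 highest regions left out had 3.4747, 3.4750 and 3.4771, near Lima1, Inpp5a and Pcsk6. In male CAST the 3 lowest members, near Rims1, Obfc2a and Trak2, all had 3.7374, and the regions left out, near Kcnip4, Gm11102 and Ly86, had 3.7297, 3.7312 and 3.7324. In female B6 the lowest members had 3.2825, 3.2825 and 3.2965, near Gm1631, Gm10655 and Dixdc1, against 3.2155 for each of the 3 regions left out, near 1810058N05Rik, Sult2a6 and D430042O09Rik. The female CAST list had a wider gap, from 3.9148, 3.9193 and 3.9366 outside, near Smu1, Abcc4 and Slc25a13, to 4.1385 at the lowest member.

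The share of a list's regions found in that list alone fell with fold enrichment. In male B6 it was 36.4% below the median, 4.21% from the median to 5, 0.86% from 5 to 7, 0.362% from 7 to 9 and 0.0778% from 9 up, where 2 of 2570 regions were left. The male CAST shares were 37.6, 6.35, 1.75, 0.359 and 0.185%, with 6 of 3236 regions in the last class. From 5 to 7, the Wilson 95% interval, which covers counting error only, was 0.649 to 1.14% in male B6 and 1.45 to 2.11% in male CAST. Most strong DHS of each list were thus found in at least 1 other list, and these shares describe the quantity that chose the members.

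**Figure D2:**
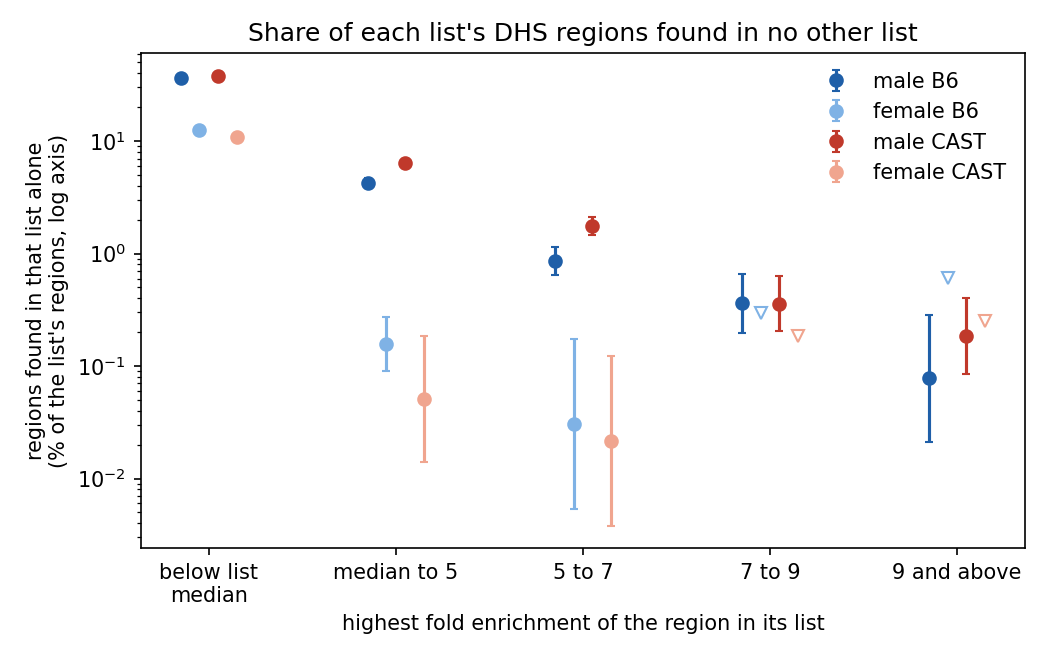
Share of each list's regions that hold no peak of another list (log axis), by the region's fold enrichment in that list, with Wilson 95% intervals for counting error. Open triangles mark the upper bound where the count was 0, and the male B6 share falls from 36.4% below the median to 0.0778% at 9 and above.

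Read depth was recovered from the deposited values, and the genome-wide background was 15.4 and 14.3 reads for male B6 and male CAST, and 13.9 and 7.94 for female B6 and female CAST. At these backgrounds the lowest fold enrichment that would reach the weakest deposited p-value was 1.9 for each male list, 1.94 for female B6 and 2.24 for female CAST. All 4 list medians are higher than these limits, so the rule itself placed every member above them, and the part of read depth in the missing peaks was not tested. The values a member had in the lists that lack it are not in the deposited peaks and were not analysed here. The summit pileup ran from 56 to 195 reads in male B6 and from 56 to 271 in male CAST, with medians of 67 and 73. Every member was a single peak, and 436 of 968 had the genome-wide background as local background.

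Of the 10 highest male B6 members, 7 were intergenic and 3 intronic. The highest lay 16136 bp from Grb10, which encodes an adaptor protein that dampens insulin receptor signalling and is imprinted (chr11:11821702-11822483). It reached 11.3 with a pileup of 183 reads, and a male CAST peak lay 758 bp away. The member in an intron of Chn1, which encodes a Rac GTPase-activating protein (chr2:73454481-73455238), reached 9.42 with 195 reads. Members nearest to Gm14064, Ofcc1, Tpm3-rs7 and Gm13912 had 8.91, 8.71, 8.44 and 7.77, and all 4 were intergenic, 109104, 29644, 618906 and 325799 bp from the TSS in turn. The others had 7.7 in an intron of Gm4951, 7.66 in an intron of 1700030F18Rik, 7.64 near Srd5a2 (chr17:74406615-74407280) and 7.52 near Catsperg2, a subunit of the sperm calcium channel.

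In male CAST the highest member lay 11057 bp from Hic2, which encodes a transcriptional repressor (chr16:17222368-17222608), with a fold enrichment of 16.6 and a pileup of 271 reads, the highest of all members. It was only 241 bp wide, against a median of 515 bp for male CAST members. The next was 26895 bp from 4921511H03Rik (chr5:7276803-7277230) with 12.5 and 207 reads. Members nearest to Gm15679, Gm5277, Nxph1 and Gm6851 followed with 10.1, 9.79, 9.57 and 9.44. The remaining ones, near Hrh4, 4933436C20Rik, Gm6984 and Car10, had 8.72, 8.42, 8.13 and 7.8. All 10 were intergenic, and for 5 of them the nearest peak of another list was 396134 to 633571 bp away.

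The female lists had few members, and those of female B6 were lowest in median fold enrichment. The highest in female B6 lay 6662 bp from 1700055N04Rik (chr19:3958772-3959240), with a fold enrichment of 5.42 and a pileup of 82 reads. It was followed by 4.02 near Rorb, a retinoid-related orphan receptor, and 3.55 in an intron of Adamts12, a metalloprotease. The next 6, near 9030619P08Rik, Gm16387, Rnaseh2b, Syvn1, Pde6h and Ccnd1, had 3.35 to 3.48. In female CAST the member nearest to Olfr161 (chr16:3116332-3116615) had 5.15, and a male CAST peak lay 576 bp from it. The member 28366 bp from Cyp2b10 (chr7:26730151-26730660) had 4.92 with 43 reads, and the third, near Gm12830, had 4.14 with 36 reads. Cyp2b10 is on the list of genes with female-biased liver expression, but the region lay outside the window of 20 kb used for the gene lists below. Other members beyond that window were also nearest to sex-biased genes of these lists. Among them, a male B6 member was nearest to the female-biased gene Cyp2b13 (4.95). Male CAST members were nearest to the male-biased genes Cyp4a12a (5.84), Bcl6 (5.08) and Ugt2b38 (4.46).

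Members lay mostly far from start sites. Of 968 members, 892 lay more than 2.5 kb from every TSS (92.1%, Wilson 95% interval 90.3 to 93.7), against 81.4% (80.8 to 82) of the 16872 weaker single-list regions, 67.3% of all regions and 45.6% of the 17999 regions of all 4 lists. Strong regions of both male lists and no other list were distal in 84% (81.7 to 86) of 1129, those of both CAST lists alone in 90.7% (88.6 to 92.5) of 853 and those of both B6 lists alone in 86.6% (83.8 to 89) of 663. The interval of members thus lay above that of weak single-list regions and those of strong regions of both male or both B6 lists, and it overlapped that of strong regions of both CAST lists. These intervals cover counting error only, and neighbouring regions are not independent. When peaks had to share 50% of their lengths to be joined, 79.7% of the members then found were distal.

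The median distance of members from a TSS was 27428 bp, against 14944 bp for weak single-list regions, 9419 bp for all regions and 984 bp for regions of all 4 lists. Strong regions of both CAST, both B6 and both male lists alone had medians of 21939, 21716 and 19640 bp. A TSS lay more than 100 kb away for 23.3% of members (20.8 to 26.1), compared with 12% (11.5 to 12.5) of weak single-list regions and 9.25% of all regions. It was 18.2% (15.7 to 20.9) in strong regions of both CAST lists alone, with an interval that overlapped that of members, 17% (14.4 to 20.1) in those of both B6 lists alone and 15.8% (13.8 to 18) in those of both male lists alone. The intervals of male B6 and male CAST members overlapped in this share, at 25.4% (21.4 to 29.9) and 21.8% (18.5 to 25.4). By position of the summit, 55% of members were intergenic and 41.9% intronic, while 6 lay in coding exons (0.62%) and 20 in UTR exons (2.07%). Among weak single-list regions 39.6% were intergenic and 51.1% intronic, with 3.77% in coding and 3.99% in UTR exons. Over all regions the shares were 40.7, 44.5, 4.46 and 8.58% in the same order.

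Members also lay farther from the DHS of the other lists than weak single-list regions did. A peak of another list lay within 1 kb of 53 members (5.48%, 4.21 to 7.09), against 13.8% (13.3 to 14.3) of weak single-list regions. This share depends on the joining, since it was 61.2% when peaks had to share 50% of their lengths, and on the measure of strength, since it was 11.3% with the q-value in place of fold enrichment. The median distance was 14212 bp for members and 7761 bp for weak regions, and 13% of members against 6.04% of weak regions had no peak of another list within 100 kb. Regions of all 4 lists lay within 20 kb of 27.2% (23.1 to 31.7) of male B6 members and 36.3% (32.4 to 40.4) of male CAST members, compared with 49 and 47% of the weak regions of the same lists. DHS shared by both male lists alone were within 20 kb of 11.7% (8.93 to 15.2) of male B6 members against 19.2% (18.3 to 20.2) of weak ones, and of 13.4% (10.8 to 16.5) of male CAST members against 18.7% (17.9 to 19.7). For DHS shared by both sexes of the same strain alone the intervals overlapped, with 11.5% (8.71 to 15) of male B6 members against 8.53% (7.89 to 9.22), and 11.3% (8.88 to 14.2) of male CAST members against 10.4% (9.7 to 11.1).

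**Figure D3:**
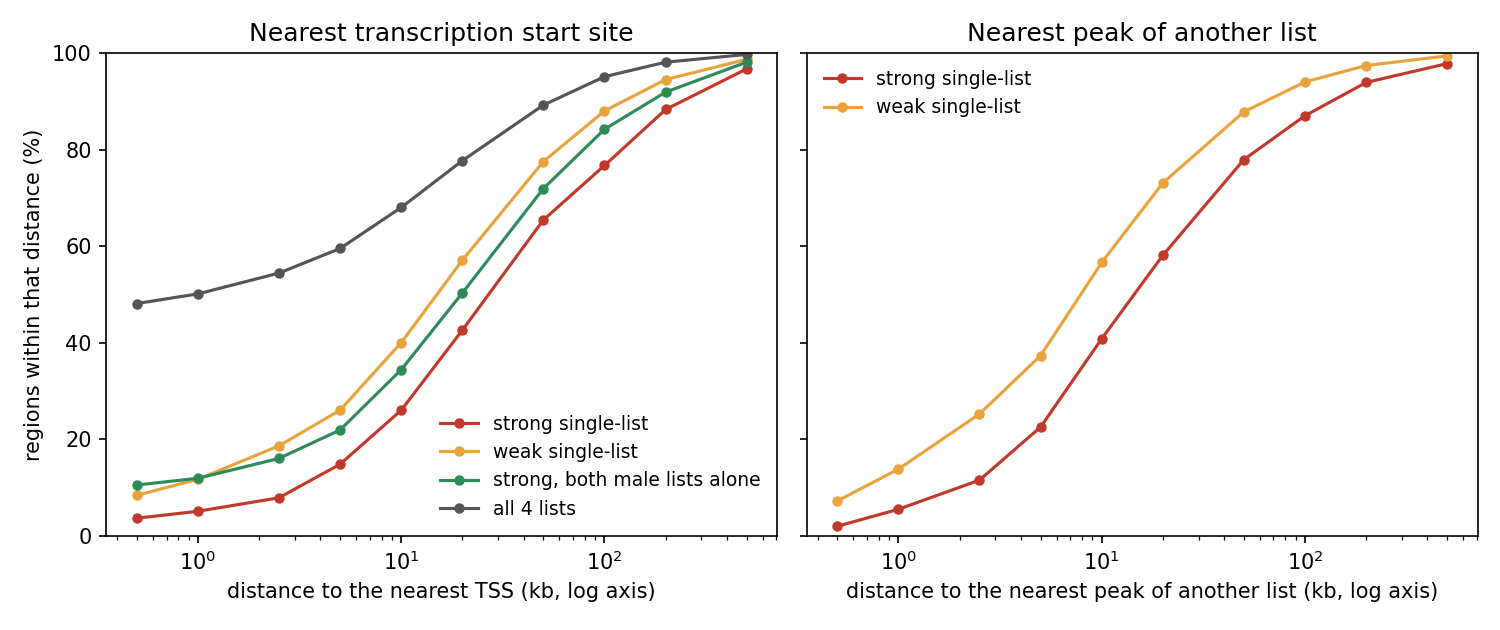
Share of regions within a given distance (log axis) of the nearest TSS (left) and of the nearest peak of another list (right), in percent. The red line of strong single-list DHS runs below those of weak single-list regions (both panels), strong regions of both male lists alone and regions of all 4 lists (left), with 92.1% beyond 2.5 kb of a TSS and 5.48% within 1 kb of another list's peak.

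Of the 401 male B6 and 551 male CAST members, 43 and 63 lay within 100 kb of another member of the same list. Runs of at least 3 members of 1 list with gaps of at most 100 kb numbered 3 in male B6 and 2 in male CAST, and another 17 and 28 pairs were found. Such counts were not made for other regions, so they do not show whether members lay closer together than other regions do. In male B6 the runs had Grik2 as nearest gene, from 1449335 bp away (chr10:47302038-47374402), lay between genes near Postn and Gm17556 (chr3:54297474-54326297), and in introns of Uvrag (chr7:106173131-106240886), a gene of autophagy. Fold enrichment in these runs was 3.91 to 5.08, 4.47 to 6.24 and 3.53 to 5.05. The Grik2 run lay 626129 bp from the nearest peak of another list. In male CAST, 4 members lay around Ankrd55 (chr13:113031462-113135950) with 3.8 to 6.04, and 3 near 1700047G07Rik (chr8:98864452-98887113) with 4.31 to 7.19.

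Of 24930 genes on chromosomes 1 to 19, 562 (2.25%, 2.08 to 2.45) had a member within 20 kb of a TSS and 72.2% had any region there. In the lists of hepatocyte regulators, sex-biased genes and clock genes the Wilson interval included 2.25%, so the small counts there set none of these lists apart from all genes. None of the 22 hepatocyte regulators, among them Hnf4a, Foxa2, Cebpa and Stat5b, had a member (interval up to 14.9%), and all 22 had some region. Of the 40 female-biased genes none had a member (up to 8.76%) and 27 had any region. Of the 26 male-biased genes 24 had any region, and 2 had a member (7.69%, 2.14 to 24.1), both in male CAST. These were Cish, which encodes a STAT5-induced inhibitor of growth hormone receptor signalling, with 4.2 at chr9:107181922-107182593, and Mup20, with 4 at chr4:61715671-61715986, 479 bp from its TSS. The Cish member was 15764 bp from Cish and lay in an intron of Mapkapk3, whose TSS was 653 bp away. Of 17 clock genes, Npas2, which encodes a transcription factor that can replace CLOCK, had a male B6 member with 3.49, 6322 bp away.

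In the gene families, 3 of 100 Cyp genes had a member (3%, 1.03 to 8.45), near the share over all genes. At Cyp4a32 the male B6 member (chr4:115269675-115270007, 3.73) and the male CAST member (chr4:115274393-115274837, 4.79) lay 3567 and 813 bp from its TSS and did not overlap. A male B6 member lay 15887 bp from Cyp3a25, a steroid and drug hydroxylase, with 4.28, and a male CAST member 4516 bp from Cyp2c70, which makes muricholic bile acids, with 4.72. Serpina3m, a serine protease inhibitor, had 2 male B6 members with 6.18 and 3.94, 11365 and 1045 bp away. Single male B6 members lay 7595 bp from Mup21 (5.01), 7510 bp from H2-Q10 (4.52) and, in an intron of Ugt1a10, 15354 bp from Ugt1a2 and 18703 bp from Ugt1a5 (3.63). With these, 2 of 21 Mup and 2 of 21 Ugt genes had a member (9.52%, 2.65 to 28.9, in each), with intervals above the share over all genes, but the Ugt pair shares 1 region and the genes of a cluster are not independent. Any region lay near 4 of the Mup genes (19%) and 20 of the Ugt genes (95.2%), against 72.2% of all genes. Of the Serpina, Slc22 and H2- genes 1 each had a member, in 4.35% (0.772 to 21) of 23, 4% (0.71 to 19.5) of 25 and 2.78% (0.492 to 14.2) of 36. A male CAST member lay over a TSS of the carnitine transporter gene Slc22a21 (4). Among the receptors of smell and pheromone sensing, 5 of 1111 Olfr genes (Olfr1366, Olfr1535 and Olfr1375-ps1 in male B6, Olfr1442 and Olfr1443 in male CAST) and 2 of 329 Vmn genes (Vmn1r2 and Vmn1r3 in male CAST) had a member, with fold enrichments of 3.73 to 6.69. The 5 Olfr genes share 3 regions, of which that near Olfr1375-ps1 lies over a TSS of Zfp354a, and the 2 Vmn genes share 1 region, so the genes are not independent. They were 0.45% (0.192 to 1.05) of the Olfr and 0.608% (0.167 to 2.19) of the Vmn genes, and any region lay near 7.83 and 8.51% of them, against 72.2% of all genes. No Sult, Gst or Slco gene had a member, and the intervals, up to 18.4, 14.9 and 20.4%, included the share over all genes.

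The labelled tissue was checked against marker genes. In whole liver, more cells of a type and more open chromatin per cell cannot be told apart. DHS over a TSS were found at 9 of 10 hepatocyte markers in both male lists and at 8 of 10 in both female lists. None of the 6 Kupffer cell markers with an annotated start site on chromosomes 1 to 19 had a DHS over it in any list. Of 8 markers of sinusoidal endothelium, the cells that line the liver's blood channels, 7 had a DHS over a TSS in the male B6 list and 4 in that of female B6, against 2 in each CAST list. Members near these markers were 2 male B6 regions in introns by Pecam1, an endothelial adhesion molecule (both 3.97), and a male CAST region in an intron by Stab2, a scavenger receptor (5.57). A male B6 member lay 7409 bp from the bile duct marker Sox9 (3.79), with Gm11681 nearer. For stellate cells, bile duct, T and NK cells, B cells, neutrophils and erythroid cells at most 2 markers had a DHS over a TSS in any list. The part of cell composition in the male B6 members was not tested.

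The letters at the summits differed between the male lists. The STAT5 letters TTCNNNGAA were present in 111 of 551 male CAST windows (20.1%, 17 to 23.7) and in 42 of 401 male B6 windows (10.5%, 7.84 to 13.9). Weak single-list regions held them in 12.9% (12.1 to 13.6) in male CAST and 9.25% (8.58 to 9.96) in male B6, and all regions in 10.2%. Strong regions of both male lists alone held them in 13.5% (11.6 to 15.6), those of both CAST lists alone in 14.1% (11.9 to 16.6), those of both B6 lists alone in 10.9% (8.71 to 13.5), and regions of all 4 lists in 9.02%. The interval of the male CAST members thus lay above each of these, whereas that of the male B6 members overlapped that of weak male B6 regions. Of the 13 female B6 members 4 held the letters (30.8%, 12.7 to 57.6), with an interval that overlapped that of male CAST members. None of the 3 female CAST members held them (interval up to 56.1%). Weak regions of male CAST also held the letters more often than those of male B6, with intervals that did not overlap. At distal members the shares were 20.5% (17.2 to 24.2) in male CAST and 11% (8.17 to 14.6) in male B6. They were 11.1% (10.6 to 11.7) at distal weak single-list regions and 12.2% (11.5 to 12.9) at distal regions of all 4 lists. The interval of distal male CAST members lay above both, and that of distal male B6 members overlapped both.

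Base composition was much the same in the members of both male lists, with a median GC of 44.3% in male CAST and 43.7% in male B6. The letters CTTNNNAAG, a rearrangement of the STAT5 letters with the same bases that was chosen after the STAT5 shares were seen, occurred in 11.6% (9.2 to 14.6) of male CAST and 7.98% (5.71 to 11) of male B6 members, in 11.3 and 11.1% of the weak regions of these lists and in 9.92% of all regions. The share with the STAT5 letters showed no order with strength. In 4 groups of members of near equal number, from lowest to highest fold enrichment, it was 22.5, 14.5, 21.9 and 21.7% in male CAST and 12.9, 10, 9 and 10% in male B6. Of male CAST members with them, 19.8% (13.5 to 28.2) held them within 25 bp of the summit, which is 17% of the window, against 21.6% (19.1 to 24.4) of weak male CAST regions.

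The C/EBP letters TTGCNNAA stood in 23.2% (19.3 to 27.6) of male B6 and 25.2% (21.8 to 29) of male CAST members, above the 16.9% (16.1 to 17.9) and 17.8% (16.9 to 18.7) of weak regions of these lists. Strong regions of both male lists alone held them in 24.6% (22.2 to 27.2), those of both B6 lists alone in 23.2% (20.2 to 26.6), those of both CAST lists alone in 21.7% (19.1 to 24.6) and distal regions of all 4 lists in 23.8% (22.9 to 24.8), so the intervals of members overlapped those of each of these. The CTCF letters AGGGGGC were found in 22 of 968 members (2.27%, 1.51 to 3.42), against 5.07% (4.75 to 5.41) of weak single-list regions, 4.29% (3.97 to 4.65) of distal weak ones and 6.48% of all regions. At distal members the share was 1.91% (1.19 to 3.03), and at distal regions of all 4 lists it was 3.73% (3.34 to 4.16). Strong regions of both B6 lists alone held the letters in 2.71% (1.72 to 4.25), those of both male lists alone in 4.43% (3.38 to 5.79) and those of both CAST lists alone in 4.92% (3.66 to 6.59), and the interval of members overlapped those of the first and, narrowly, the second. The HNF4A letters CAAAGTCCA occurred in 2.79% of members (1.92 to 4.03) against 1.32% (1.16 to 1.51) of weak single-list regions, and in 2.65% of distal regions of all 4 lists. Their intervals overlapped those of strong regions of both male lists alone (1.59%, 1.01 to 2.51), both CAST lists alone (1.64%, 0.98 to 2.74) and both B6 lists alone (2.41%, 1.49 to 3.88). Median GC was 44% in members, 47% in weak single-list regions and 54.3% in regions of all 4 lists, and in strong regions it was 45% for both male lists alone, 46.3% for both CAST lists alone and 47% for both B6 lists alone. The part of GC in the shares was not tested. For FOXA (TGTTTAC), 8.37% (6.78 to 10.3) of members held the letters, against 6.24% (5.89 to 6.62) of weak single-list regions. At distal positions the intervals overlapped, with 8.3% (6.66 to 10.3) of members and 6.52% (6.11 to 6.94) of weak regions, and the letters stood in 8.24% (6.77 to 9.99) of strong regions of both male lists alone, 7.62% (6.02 to 9.6) of those of both CAST lists alone, 10.1% (8.04 to 12.6) of those of both B6 lists alone and 9.08% (8.48 to 9.72) of distal regions of all 4 lists, each interval overlapping that of all members. For AP-1 (TGANTCA) and the E-box (CACGTG) the intervals of members and weak single-list regions overlapped. The ETS letters CCGGAAG, typical of promoters, stood in 1.65% of members (1.02 to 2.67), 2.13% (1.93 to 2.36) of weak single-list regions and 2.16% (1.87 to 2.5) of distal regions of all 4 lists, with intervals that overlapped, against 10% of regions of all 4 lists. The HNF1 letters GTTAATNAT stood in 2.69% of members (1.84 to 3.91), against 1.49% (1.32 to 1.68) of weak single-list regions. All regions held them in 2.02% (1.9 to 2.15) and regions of all 4 lists in 2.26% (2.05 to 2.49), both within the interval of members. At distal positions the intervals overlapped, with 2.69% (1.81 to 3.97) of members and 1.68% (1.48 to 1.91) of weak regions, and strong regions of both male lists alone held the letters in 2.04% (1.36 to 3.04), those of both CAST lists alone in 2.58% (1.71 to 3.87), those of both B6 lists alone in 2.71% (1.72 to 4.25) and distal regions of all 4 lists in 3.71% (3.32 to 4.14). The CRE letters TGACGTCA were in 0.62% of members and 0.486% of weak single-list regions, with intervals that overlapped.

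**Figure D4:**
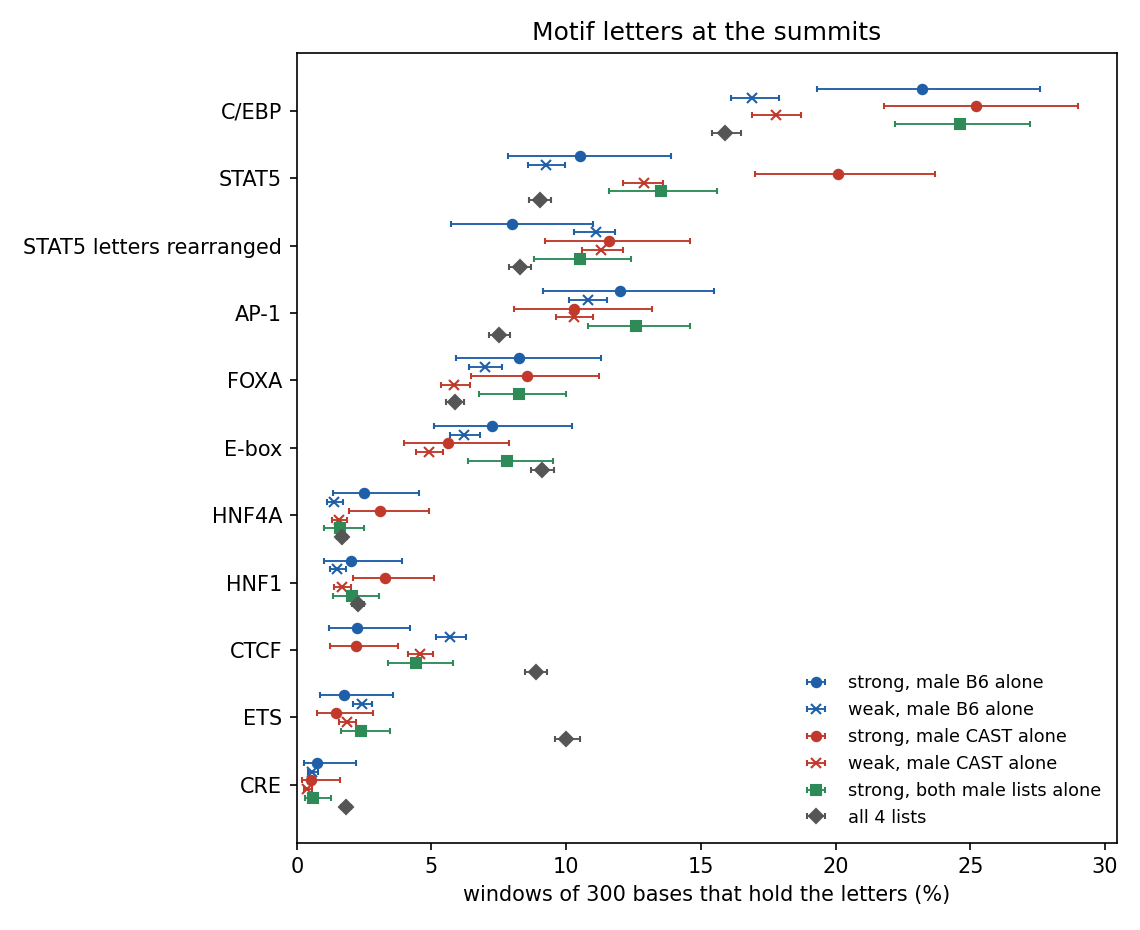
Share of windows of 300 bases around the summit that hold the letters of each motif on either strand, in percent, with Wilson 95% intervals for counting error. The STAT5 letters stand in 20.1% of strong DHS of male CAST alone and in 10.5% of those of male B6 alone.

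Members were less often unique in the genome than weak single-list regions. A window was called unique when at least 90% of its 32-base words occurred once in mm9, which held for 91.4% of members (89.5 to 93), against 97.3% (97 to 97.5) of weak single-list regions and 97.4% (97.2 to 97.6) of regions of all 4 lists. The share was 94.2% (92.7 to 95.5) in strong regions of both male lists alone, 93.4% (91.6 to 94.9) in those of both CAST lists alone and 94% (91.9 to 95.5) in those of both B6 lists alone, with intervals that overlapped that of members. For 13 of 968 members less than 50% of the words were unique, against 33 of 16872 weak single-list regions and 143 of all 50655 regions. In strong regions of both male, both CAST and both B6 lists alone this held for 9 of 1129, 11 of 853 and 13 of 663. Another copy of at least 80% of the window at 90% identity or more was found for 30 members, and other regions were not searched for copies. Copies elsewhere numbered 385 for the member near Armc4, 160 near Gm10801 and 141 near Osbpl10. Several members at liver gene families had 1 such copy, namely those at Mup20, Mup21, Cyp2c70, Cyp3a25 and Akr1c13 and the male CAST member at Cyp4a32. Since reads that did not map uniquely had been removed by the authors, the shared words of such a window were open to fewer reads, and the part of this in the values was not tested. Only 24.5% of the 32-base words were unique at Mup20 and 48% at the male CAST member of Cyp4a32, compared with 87.4% at the male B6 member of Cyp4a32 and 100% at the male B6 member near Srd5a2.

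Resemblance to the mitochondrial chromosome was found in 2 members, both in male CAST and both among its 5 highest. The window near 4921511H03Rik, printed above, matched it at 90% identity over 290 bp, and that near Nxph1 at 95.6% over 227 bp. By the same criterion, 1 of 16872 weak single-list regions, 0 of 17999 regions of all 4 lists, and 6 of 853 strong regions of both CAST lists alone matched, compared with 0 of 663 strong regions of both B6 lists alone. Without these 2 members the highest male CAST values were 16.6, 10.1 and 9.79.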

How the data were processed

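DNase-seq reads of liver nuclei were mapped by the authors with Bowtie2 and peaks were called with MACS2, as the submitters' processing notes and the study's methods state. B6 reads were mapped to mm9 and CAST reads to mm9 carrying known CAST variants, with coordinates converted back to mm9. Reads that did not map uniquely, blacklisted regions and peaks of duplicated reads had been removed. The 4 libraries of a group were pooled before peak calling, so a list has no replicates. Each deposited peak carries its fold enrichment, a ratio of summit pileup to background with a pseudocount of 1 on each, a −log10 p-value, a −log10 q score and its summit position. Nuclei were prepared in batches that mixed strains and sexes, and libraries of low quality had been left out by the authors.

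From these lists, peaks on chromosomes 1 to 19 were joined at 1 bp overlap. The members, gene lists and motifs were chosen with earlier results of these data known. Regions named are the 10 highest members of each list, the 3 on either side of each threshold, every run of 3 or more members, and members within 20 kb of a TSS of a listed gene. One of the 10 highest female B6 members and the sequences of 2 windows, 1 of them in a UTR exon, are not reported here. Distances used 75543 start sites of 26225 genes, either protein-coding or lincRNA or processed transcript, from the annotation given with mm9. Summit pileup and background were solved from fold enrichment and p-value, to within 0.001 of the −log10 p-value for at least 99.9% of 4000 peaks tried per list. Windows of 300 bases around the highest summit were read from mm9 (pysam 0.24.0), words of 32 bases were counted on both strands of all its sequences, motifs were searched on both strands, and copies were found with BLAST+ 2.17.0. The genome file carried no repeat mask, so a masked share was not computed, and copies were searched with BLAST for members alone, with word counts for all regions in place of a BLAST search of the regions of all 4 lists. Shares are given with Wilson 95% intervals for counting error alone. Joining, recovery of pileups, word counts and motif search were tested on simulated data. The rearranged STAT5 letters were added after seeing the data. No test between groups was made, since each group has 1 list. Alternatives are described in the closing section, and the median over all chromosomes was added after seeing the data.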

Additional observations from a re-analysis of the deposited data

Results flagged for a closer look

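The sex chromosomes were outside the 50655 regions compared. By the same rule, 24 regions of the Y chromosome were strong and found in male B6 alone, of 53 regions there, and the highest had a fold enrichment of 17.2. The male CAST list held no peak on the Y chromosome, and whether the genome to which its reads were mapped held that chromosome is not given in the sources used here. Of the 53 regions, 11 also held a female B6 peak, 15 peaks in all, with a median fold enrichment of 3.22 in female B6 and 3.26 in male B6 at these regions. On the X chromosome, 22 regions in male B6 and 14 in male CAST were strong and found in that list alone, against 2 in female B6 and 1 in female CAST. These values are given because they lie in data that the comparisons did not use and are above the limit that a count of 0 allows, and their cause was not tested.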

How the results depend on the processing

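No paired analysis was possible because the libraries of each group were pooled before peak calling, and pooling also means that replicates could not be left out in turn. Of 65 values under an alternative, 35 stayed within 1.5 times the reported count or within the interval of the reported share, and 30 moved. Requiring peaks to share 50% or more of both their lengths, members numbered 2359 (male B6 856, female B6 170, male CAST 1083, female CAST 250), of which 79.7% were distal and 61.2% had a peak of another list within 1 kb, since partly overlapping peaks then count as separate. With the 75th percentile as threshold, 97 were left (42, 1, 54 and 0 in the same order), with 89.7% distal and 2.06% within 1 kb. By q-value in place of fold enrichment, female B6 had 2, with 87.5% distal and 11.3% within 1 kb over all lists. Against the highest of the 4 medians, 526 were left, 360 in male CAST, 162 in male B6 and 1 in female B6. In lists of equal size there were 311 (124, 28, 136 and 23), with 2.89% within 1 kb. Joining peaks within 500 bp gave 3.28% within 1 kb, a promoter limit of 1 kb gave 94.9% distal, and a distance of 5 kb gave 22.5% with a peak of another list. In each of these settings male CAST held the most members and male B6 the next most. Where these moved values come from, beyond the construction of each alternative, was not tested.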

Other observations

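Of the 968 members, 24 lay over an annotated TSS (2.48%), 14 in male B6 and 10 in male CAST. The share was 4.13% in weak single-list regions, 21.5% in all regions and 46.5% in regions of all 4 lists. In male B6 these were start sites of Fam58b (5.32), Camk2b (4.49), Lynx1 (4.16), Ccrl2 (3.71) and Uap1l1 (3.49), among others, and of zinc finger genes Zfp938 (4.46) and Zfp354a (3.85). In male CAST they were those of Grb10 (7.23), Ppa2 (6.29), Phf20 (5.47), Iqcg (4.56), Akr1c13 (4) and Zfp105 (3.87), among others. Grb10 was thus nearest to a strong DHS of each male list, at separate places, 16136 bp from a TSS in male B6 and over a TSS in male CAST. These genes were chosen after their values were seen.

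By chromosome, members made up 1.01% of the regions of chromosome 11, which had the lowest share, and 2.54% of those of chromosome 14, which had the highest.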
